A study of Rattus norvegicus with 12 samples.

Results

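A set of 280 genes whose level in the rat retina was raised in oxygen-induced retinopathy (OIR) is described here, out of 32883 genes in the deposited table. The members were chosen by measured values. The mean log2(TPM + 1) of the 6 OIR libraries had to exceed that of the 6 sham libraries by more than 1, each OIR library had to lie above each sham library, and the mean over all 12 libraries had to stay under 1000 TPM. TPM is the read count of a gene divided by its length and scaled to the same total in each library. A difference over 1 was found for 374 genes, of which 75 had overlapping groups and 2 more had a mean of 1000 TPM or above. Of the remaining 297 genes, 17 were set apart because the rule leaves out 43 identifiers by name, and 26 of those 43 identifiers did not meet the conditions. The OIR and sham levels of the members are therefore given as a description, without a test.

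The rats were Sprague Dawley, of wild-type genotype, and aged P18 (postnatal day 18). Each of the 4 groups holds 3 libraries: sham with scrambled RNA, sham with a miR-143 mimic, OIR with scrambled RNA and OIR with the mimic. All 12 libraries thus come from retinas given a small RNA, scrambled or mimic, which the labels call a transfection without a route or dose, and no group without one is used here. The protocol speaks of biological samples in triplicate and does not tie them to animals, so a p-value here reflects library-to-library spread that may be partly technical. The column names hold the letter L for the mimic and R for scrambled RNA throughout, and whatever the letter marks cannot be told apart from the small RNA. The same column number stands on replicate 1 of sham scrambled and of sham mimic, which may mark 1 animal and which the labels do not explain, so the 6 sham libraries may hold fewer than 6 independent samples. OIR scrambled replicate 3 and OIR mimic replicate 1 come from records without a disease or transfection tag and were placed by title.

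OIR is a rodent model of retinopathy of prematurity. High or changing oxygen during the outgrowth of the retinal vessels stops that growth, and the poorly supplied retina later becomes hypoxic and calls up new, misplaced vessels. Retinas in this state are known for hypoxia-driven transcription, reactive Müller glia and astrocytes, and activated microglia and endothelium. miR-143 is a microRNA best known from smooth muscle, where it is abundant. The table names genes by Ensembl identifier alone, and none of its identifiers could be matched to a symbol (0 of 32883). Which of these programmes the members belong to was not tested, and the retinal label was not checked against marker genes. Members are named below by rank, from 1 for the largest mean log2 difference to 280 for the smallest, and only ranks 1 and 2 are given by identifier. In whole retinas, more cells of a type and more RNA per cell cannot be told apart.

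The mature rat microRNAs made from the miR-143 hairpin are shown because they are what a miR-143 mimic stands for in the mimic groups. The labels do not give the sequence of the mimic or its arm. Sequences are from RefSeq (GRCr8), 5′ to 3′, with the seed (bases 2 to 8), the part that pairs with target transcripts, in capitals. The 2 arms do not share a seed.
rno-miR-143-3p: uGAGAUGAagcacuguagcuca
rno-miR-143-5p: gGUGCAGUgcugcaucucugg

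Most members were weakly expressed in sham retinas and moderately expressed in OIR. The median member had a mean of 2.99 TPM in the 6 sham libraries (quartiles 1.19 and 8.57) and of 10.7 TPM in the 6 OIR libraries (quartiles 4.80 and 29.3). Means under 1 TPM in sham were found for 61 members, from 1 to 10 TPM for 156, from 10 to 100 TPM for 58 and at or above 100 TPM for 5. In OIR, 131 members had a mean of 1 to 10 TPM, 128 of 10 to 100 TPM and 21 of 100 TPM or more. The set is thus made up largely of genes that a sham retina holds at a low level, and 37 members were under 1 TPM in each of the 6 sham libraries.

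The members together took 3151 ± 92.6 TPM in sham and 9585 ± 1854 TPM in OIR (SD, n = 6 each), or 0.305% to 0.332% of a sham library and 0.788% to 1.29% of an OIR library. The summed level was 3156 ± 145 TPM in sham with scrambled RNA and 3145 ± 21.6 TPM in sham with the mimic (SD, n = 3 each). In OIR it was 9687 ± 2781 TPM with scrambled RNA and 9483 ± 906 TPM with the mimic (SD, n = 3 each). The sham libraries lay close together, while the OIR libraries ranged from 7877 TPM in OIR scrambled replicate 1 to 12889 TPM in OIR scrambled replicate 3.

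**Figure D1:**
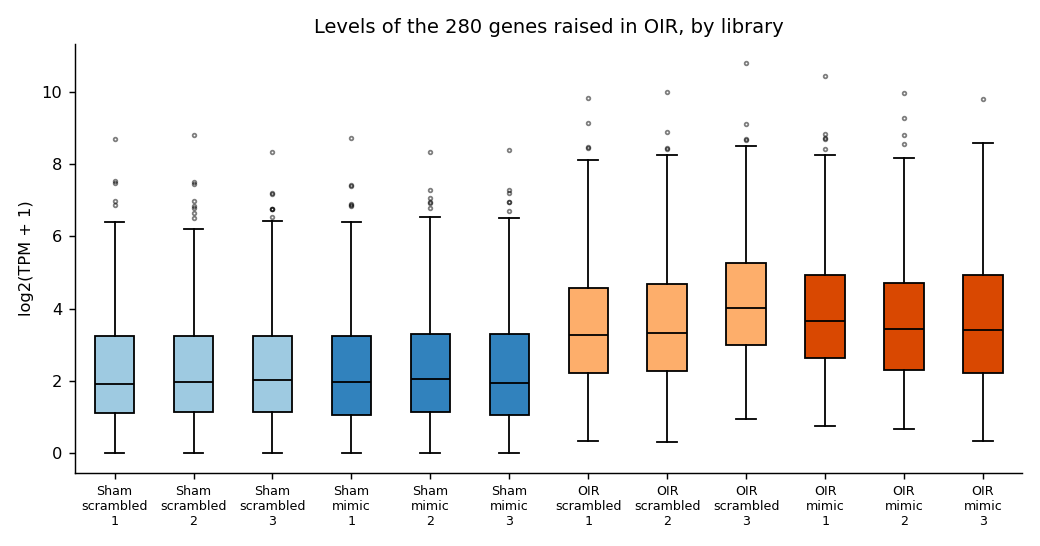
Box plots of log2(TPM + 1) of the 280 members in each of the 12 libraries (box: quartiles with the median; whiskers: 1.5 times the box height; points: members beyond them). Median levels are 2.79 to 3.11 TPM in the sham libraries and 8.67 to 15.2 TPM in the OIR libraries, with OIR scrambled replicate 3 the highest.

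The mean log2 difference between OIR and sham ran from 1.00 to 3.36 with a median of 1.32. It lay at or under 1.5 for 187 members, between 1.5 and 2 for 61 and above 2 for 32, of which 3 were above 3. Since 1 is added to each value, this scale understates the change of low genes. Among the 219 members with a sham mean of at least 1 TPM, the ratio of the mean TPM was 3.11 at the median and 17.3 at most, and it was above 4 for 60.

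How far the groups lay apart also varied. The lowest OIR library exceeded the highest sham library by a factor of 1.67 at the median (quartiles 1.40 and 2.03). It could be taken for 279 members, since 1 was at 0 in each sham library. The factor was at least 2 for 73, at least 4 for 7 and under 1.2 for 29. In those 29 the separation that the rule asks for was narrow.

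ENSRNOG00000009390 had the largest difference. Its sham values were 1.48, 4.54 and 1.26 TPM with scrambled RNA and 5.05, 3.95 and 1.77 TPM with the mimic. Its OIR values were 20.3, 38.6 and 64.1 TPM with scrambled RNA and 54.9, 35.7 and 26.4 TPM with the mimic. The lowest OIR library stood about 4 times above the highest sham library, and the OIR libraries among themselves spread from 20.3 to 64.1 TPM. The sham mean was 3.01 ± 1.69 TPM and the OIR mean 39.97 ± 16.7 TPM (SD, n = 6 each), with a mean log2 difference of 3.36. The gene is 531 bases long as recovered from the TPM steps, and its level rests on 56 reads in the 6 sham libraries and 709 in the 6 OIR libraries.

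ENSRNOG00000053544 followed with a mean log2 difference of 3.25. It stood at 0.383, 1.68 and 0.654 TPM in sham with scrambled RNA and at 0.349, 2.83 and 0.609 TPM in sham with the mimic. In OIR it reached 11.1, 13.2 and 34.4 TPM with scrambled RNA and 22.7, 19.1 and 11.9 TPM with the mimic. The sham level rests on 20 reads in all 6 libraries together, so the ratio of its means, 17.3, is imprecise. In this gene too, OIR scrambled replicate 3 was the highest library.

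Rank 6 showed a steadier rise. Its sham libraries held 7.07 to 11.7 TPM and its OIR libraries 54.8 to 91.9 TPM, and its SD within the OIR groups was 0.27 on the log2 scale. It was 1 of the 7 members with the lowest OIR library at least 4 times above the highest sham library. The others were ranks 1, 3, 5, 12, 13 and 17. Rank 248, for which no such factor exists, was listed at 0 in each sham library and at 0.231 to 4.04 TPM in OIR, a level that rests on 37 reads in the 6 OIR libraries.

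The most abundant member in OIR was rank 70. It held 324 to 446 TPM in the sham libraries and 892 to 1761 TPM in the OIR libraries, with the top value in OIR scrambled replicate 3. Rank 16 was next. Its mean was 90.9 ± 8.34 TPM over the sham libraries and 478 ± 96.1 TPM over the OIR libraries (SD, n = 6 each), a ratio of 5.25, the largest ratio among the 5 members most abundant in OIR. Its OIR values were 565, 474 and 408 TPM with scrambled RNA and 417, 621 and 380 TPM with the mimic. Here OIR scrambled replicate 3 was among the lower OIR libraries.

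**Figure D2:**
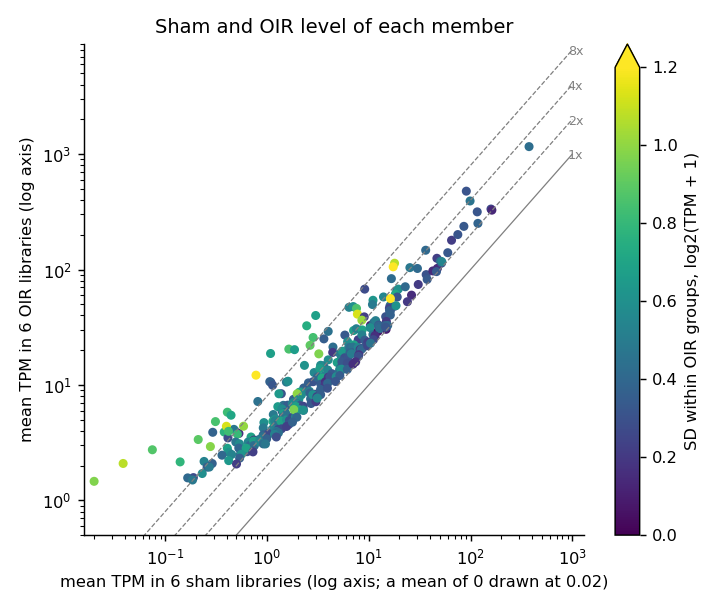
Mean TPM of each member in the 6 sham (x) and 6 OIR libraries (y), both axes logarithmic, with lines at ratios of 1, 2, 4 and 8; the colour is the SD of log2(TPM + 1) within the OIR groups. All 280 members lie above the line of equal levels, and 60 of the 219 with a sham mean of at least 1 TPM lie above the line of 4.

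At the edge of the set, the values barely differed. Just inside, ranks 280, 279 and 278 had mean log2 differences of 1.00, 1.00 and 1.01. The nearest genes below the threshold that met the other conditions had 1.00 (0.998 before rounding), 0.99 and 0.99. With a pseudocount of 0.1 in place of 1 the rule takes 469 genes, all 280 members among them, because low genes then gain in difference.

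Members were shorter than the genes tested, with a median recovered length of 1798 bases against 2143 bases. A median member had 205 reads in the 6 sham libraries and 688 in the 6 OIR libraries. In at least 1 sham library, 87 members had fewer than 10 reads and 37 fewer than 3. The counting error of log2(TPM + 1), by a Poisson approximation, had a median of 0.16 in sham and 0.12 in OIR. The SD between libraries of a group was above it for 273 of 280 members in OIR and for 196 in sham. This was counted for the members only, without a share over all genes tested. The rule used the same libraries, so the counts are a description.

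The OIR libraries did not carry the members to the same height. The SD of log2(TPM + 1) within the OIR groups had a median of 0.43 over the members, against 0.22 within the sham groups, and it was the larger one for 87.1% of members and for 59.0% of all genes tested. Low sham levels compress the sham SD on this scale. For the 63 members with a sham mean of at least 10 TPM the medians were 0.36 in OIR and 0.17 in sham, and for all 10223 tested genes at that level 0.13 and 0.11. These are descriptions, since the rule used the same libraries.

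OIR scrambled replicate 3 had the highest value of the 6 OIR libraries in 188 members, or 67.1%, while it was the highest for 25.7% of all genes tested. OIR scrambled replicate 1 was the lowest for 104 members, 37.1% against 14.3% of all genes tested. OIR mimic replicate 2 was the lowest for 43.4% of all genes tested but for 15% of the members. The median member deviated from its OIR mean by 0.52 in OIR scrambled replicate 3 and by 0.20 in OIR mimic replicate 1. The deviations were -0.28 and -0.19 in OIR scrambled replicates 1 and 2, and -0.10 and -0.17 in OIR mimic replicates 2 and 3. Within the scrambled group, the members were thus low in replicates 1 and 2 and high in replicate 3. Reads on genes of OIR scrambled replicate 3 were 11809619, within the range of 10537600 to 13175005 over the 12 libraries. Without that library the rule takes 237 genes, of which 233 are members. The rule used the mean of these 6 OIR values, so a gene high in 1 library entered the set more easily. The shares of members are therefore a description.

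**Figure D3:**
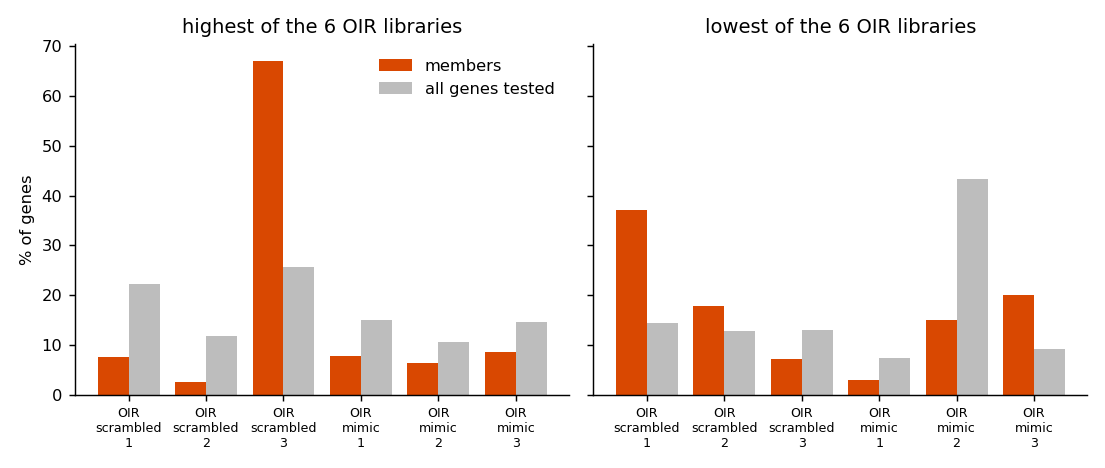
Share of the 280 members (orange) and of the 15916 genes tested (grey) whose highest (left) and lowest (right) OIR value falls in each of the 6 OIR libraries. OIR scrambled replicate 3 holds the highest value of 67.1% of the members and OIR scrambled replicate 1 the lowest of 37.1%. The rule used these same OIR values, so the shares of members are a description.

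Of the members, 20, or 7.14%, had their lowest OIR value in OIR scrambled replicate 3, against 12.99% of all genes tested. Such members were thus no more common than over all genes, and they are described without being read as a distinct subgroup. Rank 10 is the one of these with the largest difference. It held 59.8, 54.1 and 24.03 TPM in OIR with scrambled RNA and 40.05, 70.3 and 38.4 TPM with the mimic, against 4.88 to 8.73 TPM in sham. Rank 11 was likewise lowest in replicate 3 of the scrambled group, with 28.7, 29.1 and 18.4 TPM. In these 20 members the median deviation was -0.46 in OIR scrambled replicate 3 and 0.24 in OIR scrambled replicate 1. The 188 members with their highest OIR value in OIR scrambled replicate 3 had 0.68 and -0.31 in the same libraries. The 20 and the 188 were picked by these values, so no test was made. Their median log2 differences from sham, 1.31 for the 20 and 1.35 for the 188, were close, as were their median sham levels of 3.15 and 2.64 TPM. The other 72 members had neither extreme in that library.

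Across the 280 members, which are not independent and share each library's depth and scaling, the deviations of OIR scrambled replicate 3 went with those of OIR mimic replicate 1 (Pearson r of 0.50). They went against those of OIR scrambled replicates 1 and 2 (r of -0.59 and -0.54). Deviations from a common mean sum to 0 over the 6 libraries, which by itself makes such values negative on average. OIR scrambled replicate 3 and OIR mimic replicate 1 are also the 2 libraries without tags; the part of that in their likeness was not tested. Without both, the rule takes 215 genes, of which 206 are members.

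In some members 1 or a few OIR libraries stood far above the others. Rank 129 had the largest SD within the OIR groups, 1.85. It stood at 64.6 TPM in OIR mimic replicate 3 and at 1.49 to 1.86 TPM in the other 5 OIR libraries, against 0.469 to 1.32 TPM in sham. Rank 196 showed the same library apart, with 203 TPM against 20.5 to 34.0 TPM in the other OIR libraries and 10.7 to 20.2 TPM in sham. Rank 24 was high in 3 OIR libraries, at 226 TPM in OIR scrambled replicate 3, 196 TPM in OIR mimic replicate 3 and 111 TPM in OIR mimic replicate 1. In the other 3 it held 29.3 to 38.5 TPM, with 8.53 to 25.7 TPM in sham.

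Other members rose to nearly 1 level. Rank 193 had the smallest SD within the OIR groups, 0.064, with 26.6 to 30.8 TPM in OIR and 11.1 to 14.4 TPM in sham. Rank 160 also reached a narrow range in OIR, 27.4 to 33.3 TPM, but varied in sham, where sham scrambled replicates 1 and 2 stood at 2.54 and 6.30 TPM and the other 4 libraries between 15.8 and 24.4 TPM. Rank 76 held 28.9 to 36.7 TPM in OIR and 7.99 to 12.3 TPM in sham. In these 3 genes no OIR library stood apart from the rest.

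**Figure D4:**
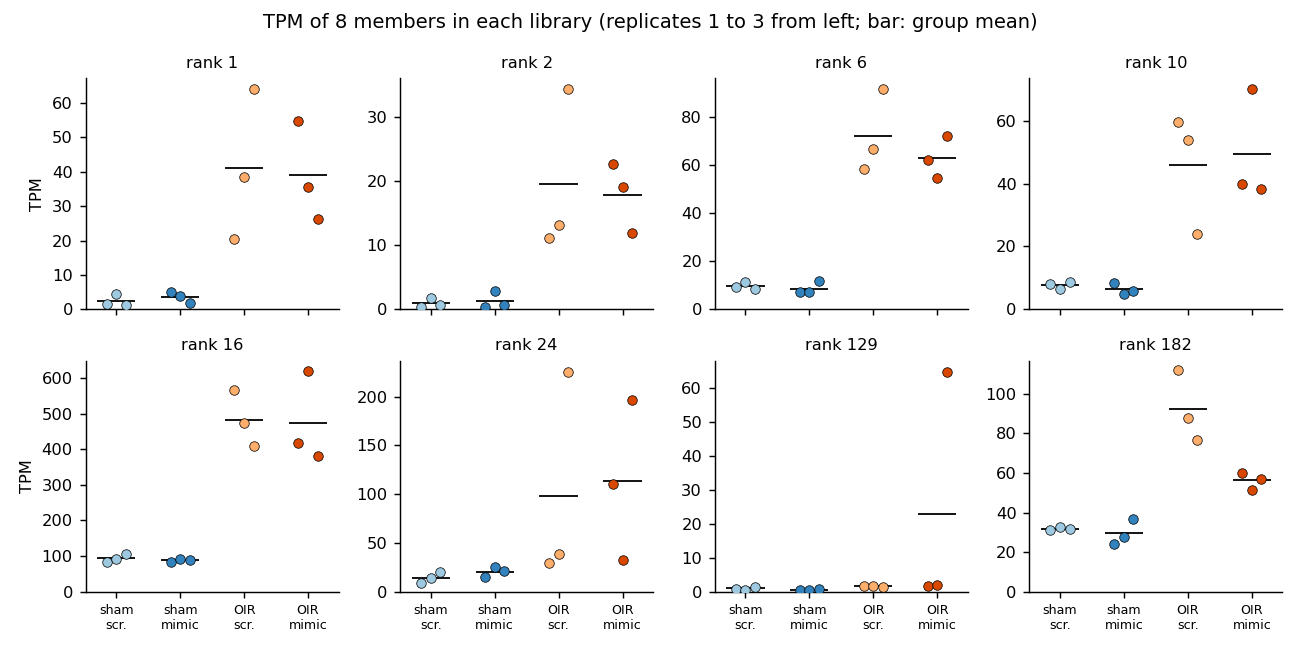
TPM of 8 members in each library, by group, with replicates 1 to 3 from left to right and the group mean as a bar. Ranks 1, 2 and 6 are highest in OIR scrambled replicate 3, rank 10 is lowest there among the OIR libraries, ranks 24 and 129 are high in 3 and 1 OIR libraries, and rank 182 lies lower in OIR with the mimic than with scrambled RNA.

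The difference between OIR and sham was then set side by side for scrambled RNA and mimic, which use separate libraries. The median log2 difference of the members was 1.34 with scrambled RNA (quartiles 1.16 and 1.66) and 1.32 with the mimic (quartiles 1.13 and 1.61). It was above 1 in both for 231 members, with scrambled RNA alone for 27 and with the mimic alone for 22, and 150 members had the larger difference with scrambled RNA. The rule used this contrast, so these values follow in part from it and were not tested. Without OIR scrambled replicate 3 the median difference with scrambled RNA was 1.13 over the 279 members that passed a low-level filter. That filter, used in all tests below, asked for at least 1 TPM in at least 3 of the 12 libraries, which 15916 genes passed. The member it removed, rank 157, had 4.05 and 5.81 TPM in 2 OIR libraries and at most 0.822 TPM in the others.

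The contrast of mimic and scrambled RNA within OIR was not a condition of the rule. The rule still asked each OIR mimic library to lie above each sham library, so a gene that the mimic had brought back to the sham level could not be a member. The shares of members below are therefore limited by the choice of members, those with a lower level under the mimic and those for the interaction most directly, and nothing is read from their distance to the shares over all genes. No member passed the test of mimic against scrambled RNA in OIR (limma, 0 of 279 with a Benjamini-Hochberg adjusted p under 0.05 over all genes; smallest adjusted p 0.453), and none of the 15916 genes tested did (0%). Over all genes, 25 (23 lower) were called without OIR mimic replicate 1 and 28 (27 lower) without both libraries that lack tags, and at most 1 in each of the other settings, with 0 members among them in any fit. At an unadjusted p under 0.05 (limma) there were 7 members, or 2.51%, against 9.37% of all genes tested. Voom on recovered reads gave 9 members at that level, or 3.23%, against 9.88% of all genes, and 0 calls. Of the 7, 2 were higher and 5 lower with the mimic, where 1.87% of all genes were higher and 7.5% lower. The share over all genes depended on OIR mimic replicate 2, the lowest OIR library for 43.4% of them. Without that library 4.78% of all genes and 2.15% of members were at an unadjusted p under 0.05 (limma). The 3 mimic libraries lay all above the 3 scrambled ones for 3 members, or 1.08%, against 3.64% of all genes, and all below for 4 members, or 1.43%, against 9.01%.

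The median effect of the mimic on the members in OIR was -0.03 on the log2 scale (quartiles -0.17 and 0.11), with 130 of 279 above 0, and over all tested genes it was -0.05. Without OIR mimic replicate 2 the median over all tested genes was -0.007. The members were measured less precisely than the rest, with a median standard error of 0.27 against 0.13. That error comes from 1 spread per gene shared by all 4 groups, and it was also 0.27 for the mimic in sham. The members' median SD was 0.43 within the OIR groups and 0.22 within the sham groups. Intervals for the mimic in OIR may thus be too narrow and p-values too small, with the reverse in sham. For 215 of 279 members, 77.1%, the unadjusted 95% interval lay within a 2-fold change either way on this scale, which held for 88.6% of all genes tested. For the other 64 members a 2-fold change lay within the interval, and a missed threshold does not show that mimic and scrambled RNA act alike.

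Of the libraries left out 1 at a time, OIR scrambled replicate 3 moved the median effect most. That library held the highest OIR value of 67.1% of the members, so leaving it out raises their mimic effect by construction. Without this library the median was 0.22, and 43 members, or 15.4%, were at an unadjusted p under 0.05 (limma). Of these, 36 were higher with the mimic. Of all tested genes 8.78% reached that level without this library, and 2.54% did so in the higher direction. The smallest adjusted p of a member was then 0.452, and again 0 members were called. Without both libraries that lack tags the median was 0.10, and 26 members, or 9.32%, were at an unadjusted p under 0.05 (limma, 0 called), against 13.3% of all genes. The median fell to -0.17 without OIR scrambled replicate 1 and to -0.13 without OIR mimic replicate 1 or OIR scrambled replicate 2. The sign of the members' shift with the mimic in OIR thus changed with the library left out.

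**Figure D5:**
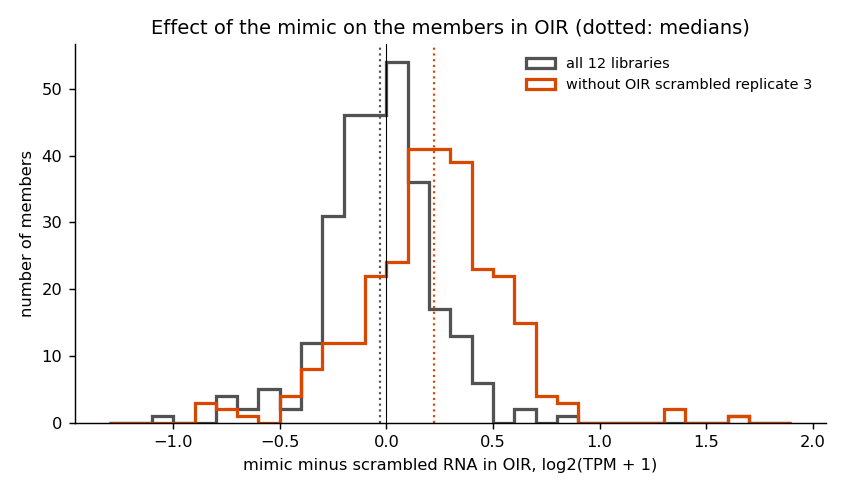
Number of members by the effect of the mimic in OIR, as the difference of mean log2(TPM + 1), with all 12 libraries (grey) and without OIR scrambled replicate 3 (orange); dotted lines are the medians, -0.03 and 0.22. That library holds the highest OIR value of 67.1% of the members, so leaving it out raises the mimic effect of those members by construction.

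Rank 182 had the smallest p of the members. Its OIR values were 112, 87.7 and 76.8 TPM with scrambled RNA and 60.1, 51.5 and 57.0 TPM with the mimic, so the groups of 3 did not overlap. In sham it held 24.1 to 36.9 TPM. The mimic effect in OIR was -0.69 (SE 0.15, 95% interval -1.02 to -0.35), with a limma adjusted p of 0.453, so it failed the correction.

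Rank 171 was lower as well, with 2.95, 2.89 and 5.19 TPM with scrambled RNA in OIR and 1.90, 1.23 and 0.616 TPM with the mimic. Its effect was -1.06 (SE 0.29, limma adjusted p 0.462), and it rests on 79 reads in the 6 OIR libraries. In the other direction, rank 150 stood at 2.66, 2.06 and 2.50 TPM with scrambled RNA and at 4.52, 4.38 and 3.84 TPM with the mimic, an effect of 0.63 (SE 0.21, limma adjusted p 0.462). Rank 269 was the second in this direction, with an effect of 0.38 (SE 0.17, limma adjusted p 0.525). Ranks 1 and 2, with the largest rise in OIR, had mimic effects there of 0.01 (SE 0.47) and 0.01 (SE 0.48), limma adjusted p of 1 for both, so that changes of either sign lay within their error.

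In sham retinas the mimic gave no call among the members (limma, 0 of 279, smallest adjusted p 1; 0% of all genes tested). An unadjusted p under 0.05 (limma) was found for 5 members, or 1.79%, against 2.09% of all genes. By voom on recovered reads it was found for 6, or 2.15%, against 1.97% of all genes. Without the 2 sham libraries that share a column number there were 4 such members, or 1.43%, against 2.35% of all genes, and 0 calls (limma). The groups of 3 did not overlap for 6 members with the mimic above, 2.15% against 2.83% of all genes, and for 15 with the mimic below, 5.38% against 3.92%. These shares are limited by the choice of members, and nothing is read from them. Of the 280 members, 37 were under 1 TPM in each sham library, and 37 had fewer than 3 reads in a sham library. The former passed the filter, where they did, only through OIR, and a change at such levels is hard to detect. The spread shared with the OIR groups may also be too large for sham. The median effect was -0.02, and -0.03 over all genes tested. Rank 54 had the smallest p of those lower, with 2.68, 2.82 and 1.37 TPM with scrambled RNA and 0.732, 0.220 and 0.853 TPM with the mimic, an effect of -1.03 (SE 0.29, limma adjusted p 1). Rank 217 led those higher, with 37.2, 40.3 and 38.0 TPM with scrambled RNA and 38.0, 67.4 and 62.7 TPM with the mimic, an effect of 0.49 (SE 0.17, limma adjusted p 1). The second in each direction were rank 15 with -1.37 (SE 0.50) and rank 224 with 0.58 (SE 0.24), neither of which passed the correction.

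The interaction asks whether the rise in OIR differed between mimic and scrambled RNA. It gave 0 calls among the members (limma, smallest adjusted p 1; 0% of all genes tested). By voom 4 members were at an unadjusted p under 0.05, or 1.43%, against 4.31% of all genes. By limma 3 members were at that level, or 1.08%, against 3.7% of all genes. Rank 15 had the largest effect of these, 2.22 (SE 0.70, limma adjusted p 1). Its sham values were 9.37, 14.4 and 9.99 TPM with scrambled RNA and 4.26, 1.92 and 5.58 TPM with the mimic. In OIR they were 15.8, 24.8 and 63.6 TPM with scrambled RNA and 67.2, 74.5 and 30.5 TPM with the mimic. It has a recovered length of 84 bases and 22 reads in the 6 sham libraries together. The others were rank 182 with -0.56 (SE 0.22) and rank 171 with -1.02 (SE 0.41), each with a smaller difference between OIR and sham under the mimic; neither passed the correction. Interaction effects were the least precise, with a median standard error of 0.38 over the members and 0.19 over all genes tested. The 95% interval lay within a 2-fold difference for 127 of 279 members, or 45.5%, against 80.5% of all genes tested.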

How the data were processed

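RNA of 12 rat retina samples was sequenced as single-end reads, per the labels' protocols, which speak of miRNA libraries although the table lists Ensembl genes. The authors deposited 1 table of TPM values. FastQC, TopHat, Cufflinks and Cuffdiff are listed with the build rn6 per the submitters' processing notes, and no source used here gives the counting tool or annotation. Columns were assigned by the lines above the table that pair titles with column names. Title alone placed OIR scrambled replicate 3 and OIR mimic replicate 1, whose records hold no disease or transfection tag.

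The supplied annotation of 47357 genes holds no Ensembl identifier of the table, so gene lists, cell type markers and promoter motifs planned by symbol were not run, and 2 identifiers are given. The members, lists and tests were chosen with earlier results of these data known.

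Each TPM value equals a whole number of steps, a step being what 1 read adds for that gene in that library, and from this reads and lengths were recovered for 22310 of 22310 rows above 0 (tolerance 0.02 and a relative 1e-05; largest relative error 5.3e-08). They served for depth (10537600 to 13175005 reads on genes per library), counting error and voom. On simulated data 100.0% of 2090 genes came out exact. The smallest whole numbers were taken, so reads and length of a low gene could both be a multiple.

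Log2(TPM + 1) of 15916 genes with at least 1 TPM in at least 3 libraries was fitted with limma 3.58.1 (R 4.3.3) with 1 mean per group, eBayes with trend and robust options, and Benjamini-Hochberg adjustment over all genes tested, threshold 0.05. On simulated data for the mimic in OIR (15916 genes, 5 draws), the fit called 91% of the 2-fold and 67.8% of the 1.5-fold changes, with 6.59% false calls. Changed genes were drawn from those above 5 TPM. The noise was normal, with the fit's 1 spread per gene in all 4 groups. Members had a median standard error of 0.27, against 0.13 over all genes tested. The shares called may thus be too high for the members, above all in OIR, where their spread was larger. Tables were made with Python 3.11.15 and pandas 2.3.3. Alternatives were other pseudocounts, filters and scalings, eBayes options, arrayWeights, voom, a replicate block, and leaving out libraries. Leaving out the 2 sham libraries with 1 column number was chosen after seeing the data. Members shown were taken by size of difference, level, spread, closeness to the threshold and smallest p in the mimic comparisons. The examples with OIR scrambled replicate 3 lowest were chosen after their values were seen.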

Additional observations from a re-analysis of the deposited data

How the results depend on the processing

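Over 24 other settings, no member was called for the mimic in OIR, the mimic in sham or the interaction (limma, 0 in each of the 24). The number of tested genes called for OIR against sham averaged over mimic and scrambled RNA was 4813 and stayed between 3991 and 6536. The number of genes taken by the rule was 280. It was 469 with a pseudocount of 0.1 and 93 with a difference over 1.5, 237 without OIR scrambled replicate 3, 215 without both libraries that lack tags, 265 after median-ratio scaling and 236 after quantile normalisation. Members at an unadjusted p under 0.05 numbered 3 to 43 for the mimic in OIR, 1 to 25 in sham and 2 to 17 for the interaction, with arrayWeights giving 24, 25 and 16 (8.6%, 8.96% and 5.73% of members, against 13.2%, 20.3% and 11.7% of all genes). The 43, or 15.4% of members, were found without OIR scrambled replicate 3, where 8.78% of all genes reached that level. Mimic effects changed sign for rank 1 in OIR (0.01 as reported; -0.041 with arrayWeights; -0.41 to 0.40 with 1 library left out) and in sham (0.47 as reported; -0.33 with arrayWeights), and for rank 2 in OIR (0.01 as reported; -0.015 with arrayWeights; -0.29 to 0.49 with 1 library left out) and in sham (0.15 as reported; -0.27 with arrayWeights; -0.31 to 0.44 with 1 library left out); the cause was not tested.

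The replicate numbers in the titles did not meet the condition for pairing, a correlation over 0.1 in every pair: over the 18 pairs of libraries with the same number, deviations from the group means correlated across genes with r between -0.05 and 0.26, and 5 were over 0.1. The highest was that of the 2 sham libraries with 1 column number. A library correlated best with its own number in 17 of 36 cases, each with 3 libraries to choose from. The pairs of replicate 1 were all positive, with r from 0.04 to 0.26, while those of replicates 2 and 3 had both signs. The condition also fails where only some numbers mark pairs, so it does not show that no libraries are paired. Whether replicate 1 alone is paired was not tested. With a replicate block 0 members were called in each mimic comparison, and 5026 genes in the averaged one. Low sham reads limit the members: 37 had fewer than 3 reads in a sham library.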
